A study of Mus musculus with 48 samples.

Results

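The lysosomal genes are 39 protein-coding genes of the mouse, out of 55416 genes with counts in each liver, found by the Ensembl identifier of their symbol. They comprise 10 cathepsins and other proteases, 9 enzymes that cut sugar chains, 4 lipid hydrolases and their activators, progranulin, 6 membrane proteins, 7 subunits of the proton pump and 2 transcription factors. No measured value was used to choose them, although the choice was made with earlier results of these data known. They were measured by RNA sequencing of 48 livers of C57Bl/6J mice, 8 in each of 6 groups. In the knock-in study, mice carried no copy (DN:WT), 1 copy (DN:HET) or 2 copies (DN:HOM) of p.W441R, a dominant-negative change in LXRα, the oxysterol receptor encoded by Nr1h3. In the separate knockout study, mice had lost none (KO:WT), 1 (KO:HET) or both (KO:HOM) copies of that gene. The methods state that the KO line was kept at another site and had been backcrossed for more than 10 generations. They describe the knock-in mice as male and leave the sex of the KO mice unstated. All 48 mice ate a western diet with 0.2% cholesterol for 8 weeks, from 8 to 16 weeks of age, so that no group shows these genes on a control diet.

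Lysosomes are acid compartments that digest material taken up from outside and material delivered from within the cell. Their hydrolases work at low pH, which a proton pump of many subunits, the V-ATPase, maintains, and heavily glycosylated proteins line and protect the membrane. In the liver, hepatocytes and macrophages both depend on them, the latter to digest lipoproteins and dead cells, and TFEB and TFE3 are known to bind a short palindromic element in the promoters of many lysosomal genes.

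Total counts on genes lay between 5332897 and 16961379 per liver (median 15879972), and 2 livers, KO:HET animal 3 and KO:HOM animal 17, had under 10000000. Nr1h3 checked the labels of every group but DN:HET. Its level was 25.2 to 31.1 counts per 1000000 reads (CPM) in KO:HOM, 48.3 to 65.4 CPM in KO:HET and 81.4 to 108 CPM in KO:WT livers, so that these 3 groups did not overlap. The knock-in keeps the gene, and Nr1h3 lay between 68.4 and 77.3 CPM in 7 DN:HOM livers and between 82.0 and 96.8 CPM in 7 DN:WT livers. The remaining liver of each group went against this. DN:WT animal 10 had 71.2 CPM and DN:HOM animal 12 had 86.8 CPM of Nr1h3. DN:HET livers had 86.25 to 99.8 CPM and overlapped the DN:WT livers, so that Nr1h3 could not check their labels. For the lysosomal genes, the library labelled DN:WT animal 10 had 180 CPM of Cd63, above the 103 to 175 CPM of 7 DN:HOM livers, and the library labelled DN:HOM animal 12 had 3.98 CPM, within the 3.34 to 12.3 CPM of the other 7 DN:WT livers. These 2 livers are absent from the source data of a bile acid gene figure of the study, which give no reason. The values below come from the other 46 livers. Where a log2 fold change of the knock-in is first given for a gene, that over all 48 livers is given too, with the labels as deposited. No liver was moved between groups.

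In DN:HOM livers, 30 of the 39 lysosomal genes were higher and 3 were lower than in DN:WT livers (edgeR quasi-likelihood test, Benjamini-Hochberg adjusted p under 0.05, n = 7 and 7), all 39 having passed the filter on low counts. The 3 lower genes, Lamp2, Atp6v1h and Atp6v0d1, turned positive when libraries were scaled by size alone. Of all 15711 genes tested, 29.1% were higher and 30% were lower in this comparison. The median log2 fold change of the lysosomal genes was 0.47, against -0.01 for all genes tested. Among genes with a mean of at least 10 CPM, a limit chosen after the data were seen, 77.1% of 35 lysosomal genes and 20.4% of all 8238 genes were higher. In 24 lysosomal genes, every DN:HOM liver lay above every DN:WT liver and the gene was called, which held for 17.7% of all genes. With the 2 livers included as labelled, 0 of the 39 did so, and 0.0512% of all genes. Over all 48 livers, 29 lysosomal genes were higher and 2 lower (23% and 25.0% of all genes), with a median of 0.34. In KO:HOM against KO:WT livers, 15 of the 39 were higher (n = 8 and 8) and 0 were lower by edgeR and by DESeq2 (0 at an unadjusted p under 0.05), with a median log2 fold change of 0.13 (all genes, -0.02). Of all genes, 11.5% were higher and 7.87% lower there. With all 48 livers in the fit, whose groups share 1 estimate of the spread, 9 of the 39 were higher, against 8.79% of all genes. Of the 15, Cd63, Atp6v0d2, Gla, Asah1, Ctsb and Naglu no longer passed, with adjusted p of 0.051 to 0.12. Of the 39, 2 genes, Ctss and Cd68, were called higher with groups that did not overlap, against 2.18% of all genes. Among called genes alone, these were 2 of the 15 lysosomal genes and 342 of the 1811 genes called higher, so the 2 are not a result about the lysosomal genes. Of the 39, 14 were higher in both homozygous comparisons, 16 passed in the knock-in alone and 1, Ctsc, in the knockout alone. Of all genes tested, 8.59%, 20.1% and 2.5% fell into these 3 classes. The counts do not test whether the effects differ.

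**Figure D1:**
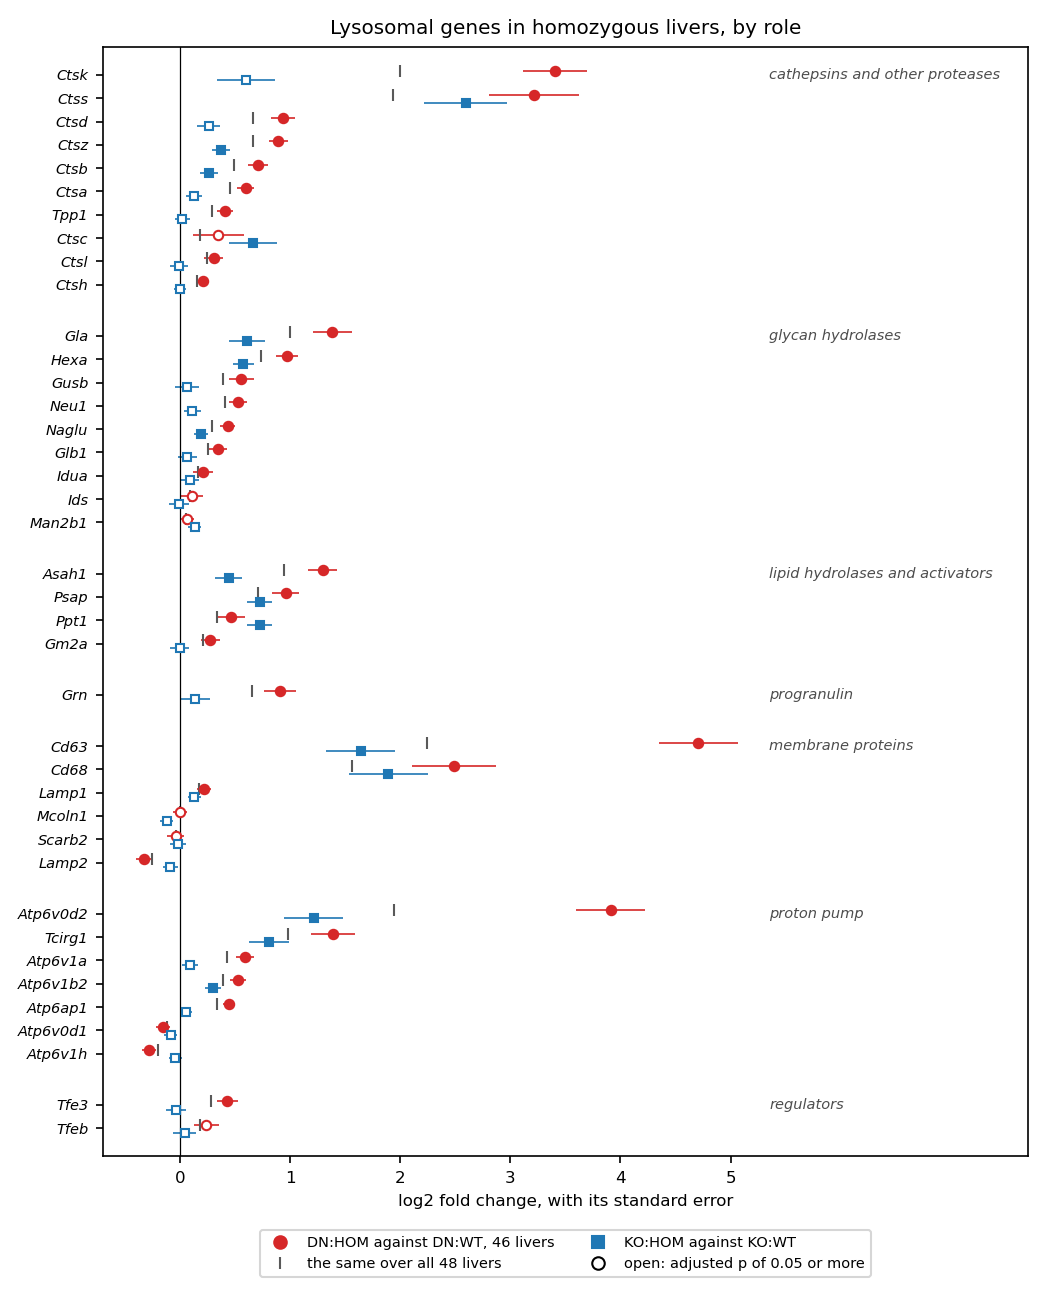
Log2 fold change of each of the 39 lysosomal genes in homozygous against wild-type livers (horizontal axis, with the standard error), grouped by role. Filled symbols passed an adjusted p of 0.05, circles are the knock-in over 46 livers, grey ticks the knock-in over all 48 livers and squares the knockout. The 5 circles furthest to the right are Cd63, Atp6v0d2, Ctsk, Ctss and Cd68.

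The level of a gene was scaled to its library by the TMM method of edgeR, and scaling by library size alone moved the median log2 fold change of all genes to 0.42 in DN:HOM against DN:WT, 0.31 in the difference between the studies and 0.09 in KO:HOM against KO:WT. Small rises are therefore given relative to the other genes of the liver. With library size alone, 38 of the 39 lysosomal genes were higher in DN:HOM livers (59.1% of all genes) and none was lower (11.1%), and 20 were higher in KO:HOM livers (16.7%). RNA of the whole liver cannot tell fewer cells of a type from less RNA per cell.

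Among the proteases, 9 of 10 were higher in DN:HOM livers and 4 of 10 in KO:HOM livers (9 and 3 over all 48 livers), against 29.1% and 11.5% of all genes. Ctss encodes cathepsin S, a cysteine protease of antigen-presenting cells that trims the invariant chain of MHC class II. It measured 22.95 to 46.8 CPM (median 34.7) in DN:WT livers and 241 to 426 CPM (median 325) in DN:HOM livers. In the knockout study it measured 14.7 to 44.2 CPM (median 24.02) in KO:WT and 79.8 to 309 CPM (median 127.5) in KO:HOM livers. The homozygous livers lay above the wild-type livers without overlap in both studies, over a wider range in the knockout. The log2 fold changes of Ctss were 3.21 ± 0.41 (standard error, adjusted p = 7.0e-09) in the knock-in, 1.93 over all 48 livers (adjusted p = 0.0021), and 2.60 ± 0.38 (adjusted p = 4.6e-06) in the knockout. Ctsk encodes cathepsin K, a collagen-cutting protease best known from osteoclasts, and it was the least abundant protease here. It measured 0.370 to 1.34 CPM (median 0.545) in DN:WT livers and 6.31 to 8.48 CPM (median 7.71) in DN:HOM livers, with a log2 fold change of 3.41 ± 0.29 (adjusted p = 1.9e-13; 2.0 over all 48 livers, adjusted p = 0.00031). In KO:HOM livers it measured 0.993 to 2.60 CPM (median 1.86) and in KO:WT livers 0.694 to 1.95 CPM (median 1.03), ranges that overlapped, and the log2 fold change of 0.60 ± 0.27 did not pass (adjusted p = 0.11).

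Ctsk and Ctss are neighbours on the plus strand in GRCm39, at chr3:95406178-95416732 and chr3:95433963-95463717. Of the other large rises described here, Cd63 lies at chr10:128731528-128748709, Cd68 at chr11:69555037-69557067 and Atp6v0d2 at chr4:19876838-19922614.

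The abundant proteases moved less. Ctsd, the aspartic protease cathepsin D, measured 122 to 199 CPM (median 133) in DN:WT and 234 to 331 CPM (median 269) in DN:HOM livers, and its log2 fold change was 0.93 ± 0.11 (adjusted p = 1.1e-09; 0.67 over all 48 livers, adjusted p = 0.00031). Ctsd measured 142 to 215 CPM (median 167) in KO:HOM livers, against 126 to 181 CPM (median 136) in KO:WT livers, and its log2 fold change of 0.26 ± 0.10 had an adjusted p of 0.067. Ctsb, cathepsin B, rose in both studies, by 0.71 ± 0.09 on the log2 scale in the knock-in (adjusted p = 3.7e-09; 0.49 with all 48) and by 0.26 ± 0.08 in the knockout (adjusted p = 0.020). Ctsl, cathepsin L, rose by 0.31 ± 0.09 in DN:HOM livers (adjusted p = 0.0020; 0.24 over all 48 livers) and had -0.01 ± 0.08 in KO:HOM livers (adjusted p = 0.94). The exons of Ctsd and Ctsl overlap those of Gm49369 and Gm49230 on the same strand, and their counts are uncertain to that extent. Ctsz, a carboxypeptidase of the same family, was higher in both studies (log2 0.89 and 0.37; 0.67 in the knock-in over all 48 livers). Ctsa, Tpp1 and Ctsh were higher in the knock-in by 0.60, 0.41 and 0.21, and by 0.45, 0.29 and 0.15 over all 48 livers. Ctsc, which activates the serine proteases of granules, was the exception, with a log2 fold change of 0.35 ± 0.23 in DN:HOM livers (adjusted p = 0.20; 0.18 over all 48 livers) and a rise of 0.66 ± 0.22 in KO:HOM livers (adjusted p = 0.027).

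Of the 9 enzymes that remove sugars, 7 were higher in DN:HOM livers and 3 in KO:HOM livers (6 and 1 over all 48 livers), against 29.1% and 11.5% of all genes. Gla, alpha-galactosidase A, which removes galactose from glycolipids, rose most. It measured 3.77 to 5.72 CPM (median 4.66) in DN:WT and 8.72 to 15.1 CPM (median 12.9) in DN:HOM livers, with no overlap and a log2 fold change of 1.38 ± 0.17 (adjusted p = 5.4e-09; 1.0 over all 48 livers, adjusted p = 0.00025). Gla measured 3.796 to 10.6 CPM (median 7.68) in KO:HOM livers and overlapped KO:WT livers (3.805 to 5.99 CPM, median 4.80), with a log2 fold change of 0.61 ± 0.17 (adjusted p = 0.0065). Hexa, the alpha subunit of beta-hexosaminidase, rose by 0.97 ± 0.10 in the knock-in (adjusted p = 4.7e-11; 0.73 with all 48) and by 0.57 ± 0.09 in the knockout (adjusted p = 2.6e-05). Naglu also rose in both studies (0.43 and 0.19), while the sialidase Neu1, the glucuronidase Gusb, the galactosidase Glb1 and the iduronidase Idua rose in the knock-in by 0.53, 0.56, 0.34 and 0.21. Over all 48 livers Naglu, Neu1, Gusb and Glb1 had 0.30, 0.41, 0.39 and 0.26 and still passed. The rise of Idua had an adjusted p of 0.041 and was lost with all 48 livers (0.16, adjusted p = 0.13). Exons of Glb1 overlap Tmppe on the same strand. Ids and Man2b1 had log2 fold changes of 0.11 and 0.06 in DN:HOM livers (0.09 and 0.05 over all 48 livers) and -0.01 and 0.13 in KO:HOM livers, with adjusted p of 0.11 or more in these 4 tests.

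All 4 genes of lipid digestion were higher in DN:HOM livers and 3 of the 4 in KO:HOM livers (4 and 2 over all 48 livers), against 29.1% and 11.5% of all genes. Psap encodes prosaposin, the precursor of the saposins that present sphingolipids to their hydrolases. It measured 386 to 480 CPM (median 418) in DN:WT and 731 to 982 CPM (median 809) in DN:HOM livers, and 350.5 to 567 CPM (median 452) in KO:WT and 557 to 974 CPM (median 732) in KO:HOM livers. The knock-in groups were separate, and the lowest KO:HOM liver lay below the highest KO:WT liver. The log2 fold changes of Psap were 0.96 ± 0.12 in the knock-in (adjusted p = 5.0e-09; 0.71 over all 48 livers) and 0.72 ± 0.11 in the knockout (adjusted p = 1.3e-05). Asah1, acid ceramidase, rose by 1.3 ± 0.13 in DN:HOM livers (adjusted p = 2.4e-11; 0.95 with all 48) and by 0.44 ± 0.12 in KO:HOM livers (adjusted p = 0.0077). Ppt1, which removes palmitate from proteins, rose by 0.47 ± 0.12 in the knock-in (adjusted p = 0.00094; 0.34 with all 48) and by 0.73 ± 0.11 in the knockout (adjusted p = 1.5e-05). Gm2a, the activator of ganglioside GM2 hydrolysis, rose by 0.28 in the knock-in (0.21 over all 48 livers) and had a log2 fold change of -0.00 in the knockout. Grn encodes progranulin, a secreted protein that reaches lysosomes bound to prosaposin among others, and it measured 94.96 to 144 CPM (median 105) in DN:WT and 160.5 to 222 CPM (median 207) in DN:HOM livers. Its log2 fold change was 0.91 ± 0.15 (adjusted p = 1.1e-06; 0.65 over all 48 livers). KO:WT livers measured 96.7 to 209 CPM (median 168) of Grn and KO:HOM livers 130 to 251 CPM (median 180), ranges that largely overlapped (log2 0.13 ± 0.14, adjusted p = 0.55).

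The 6 membrane proteins split. Cd63, a tetraspanin of late endosomes and lysosomes, had the largest rise of the 39 genes in DN:HOM livers. It measured 3.34 to 12.3 CPM (median 5.10) in DN:WT and 103 to 175 CPM (median 158) in DN:HOM livers, 26.1-fold by the fit (log2 4.71 ± 0.36, adjusted p = 6.5e-15). Over all 48 livers its log2 fold change was 2.24 ± 0.60 (adjusted p = 0.0023), a value lowered by the libraries labelled DN:WT animal 10 and DN:HOM animal 12. In the knockout Cd63 measured 3.43 to 12.4 CPM (median 5.301) in KO:WT and 11.2 to 30.02 CPM (median 16.4) in KO:HOM livers, 3.12-fold (log2 1.64 ± 0.31, adjusted p = 0.00015), with a single KO:WT liver, animal 23, reaching into the range of the KO:HOM livers. Cd68, a LAMP-family protein of macrophages and their usual histological marker, measured 5.31 to 11 CPM (median 7.56) in DN:WT and 27.98 to 50.2 CPM (median 42.8) in DN:HOM livers. Its log2 fold change was 2.48 ± 0.38 (adjusted p = 3.7e-07; 1.56 over all 48 livers, adjusted p = 0.0035), and 1.89 ± 0.36 in the knockout (adjusted p = 0.00014), where KO:WT livers measured 3.43 to 13.5 CPM (median 4.78) and KO:HOM livers 13.8 to 45.1 CPM (median 23.2). Lamp1, a chief component of the lysosomal membrane, rose by only 0.22 ± 0.06 in DN:HOM livers (adjusted p = 0.0037; 0.17 over all 48 livers), from 607 to 743 CPM in DN:WT to 698 to 900.0 CPM, and had 0.13 ± 0.06 in KO:HOM livers (adjusted p = 0.13). Lamp2, its relative with a role in autophagy, fell by 0.33 on the log2 scale in DN:HOM livers (standard error 0.07, adjusted p = 1.3e-04; -0.25 over all 48 livers, adjusted p = 0.0057), from 579 to 667 CPM (median 636) to 430 to 600 CPM (median 496), whereas with library size alone its value was 0.10 (adjusted p = 0.10), below the median of all genes in that scaling. Lamp2 had -0.09 ± 0.07 in KO:HOM livers (adjusted p = 0.40). The receptor Scarb2 and the calcium channel Mcoln1 had -0.04 and 0.00 in DN:HOM livers (adjusted p of 0.70 and 0.96; -0.03 and 0.00 over all 48 livers).

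**Figure D2:**
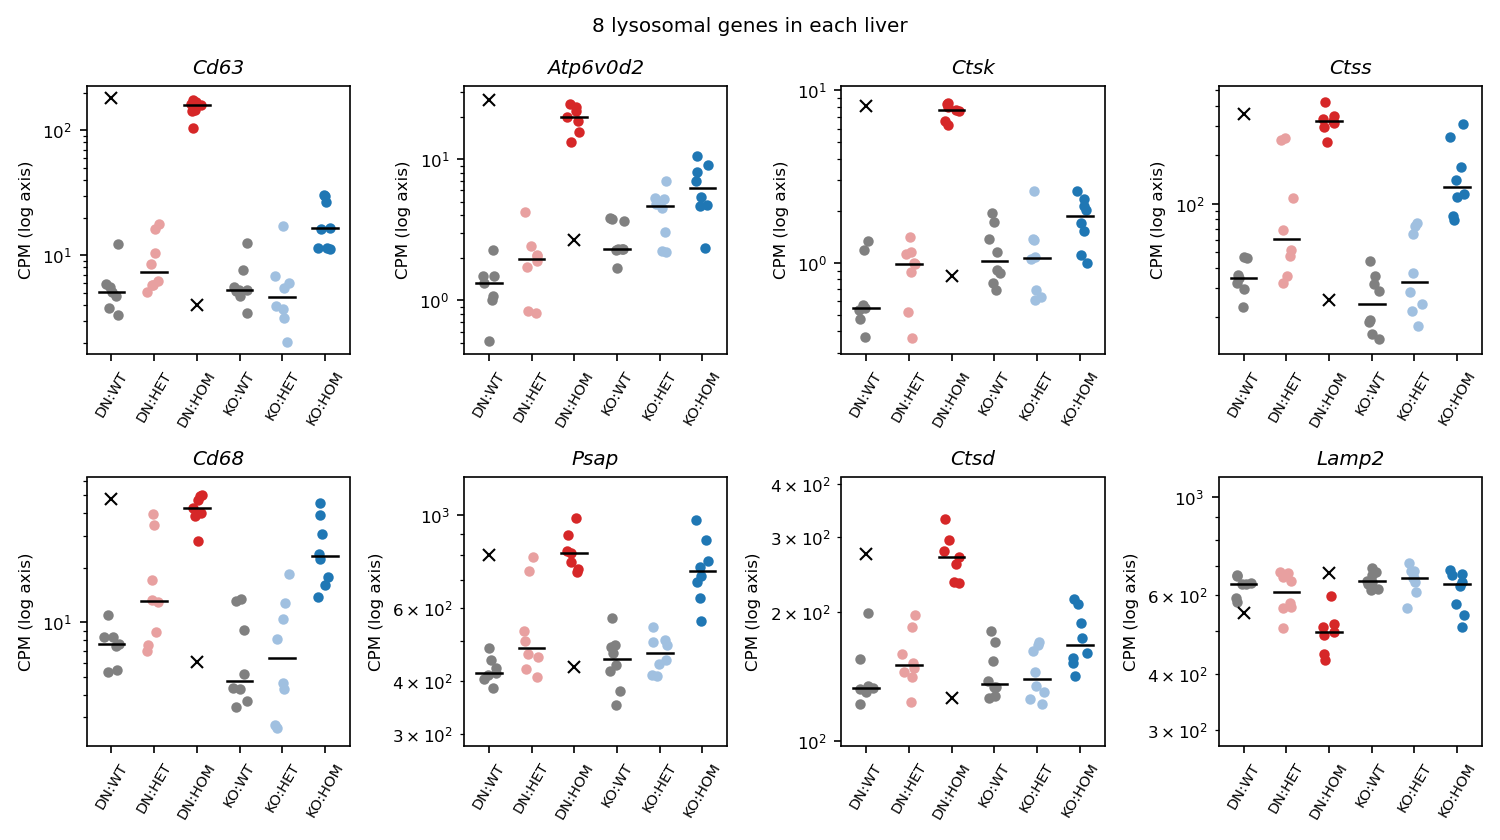
CPM (log axis) of 8 lysosomal genes in each liver by group. Dots are livers of the 46, bars their medians, and crosses the libraries labelled DN:WT animal 10 and DN:HOM animal 12. The crosses of Cd63 lie at 180 and 3.98 CPM, and DN:HOM dots lie above all DN:WT dots for every gene but Lamp2, where the 2 groups overlap and the DN:HOM median is lower, 496 against 636 CPM.

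Of the 7 pump subunits, 5 were higher and 2 lower in DN:HOM livers (5 and 1 over all 48 livers), and 3 were higher in KO:HOM livers. With library size alone 7 were higher and 0 lower in DN:HOM livers, against 59.1% and 11.1% of all genes. Atp6v0d2, the form of subunit d known from osteoclasts, macrophages and other specialised cells, measured 0.518 to 2.26 CPM (median 1.32) in DN:WT and 13.3 to 24.4 CPM (median 19.96) in DN:HOM livers. That is 15.03-fold (log2 3.91 ± 0.31, adjusted p = 3.0e-14; 1.94 ± 0.49 over all 48 livers, adjusted p = 0.0015). In the knockout it measured 1.69 to 3.83 CPM (median 2.30) in KO:WT and 2.34 to 10.4 CPM (median 6.20) in KO:HOM livers (log2 1.21 ± 0.27, adjusted p = 8.6e-04). Atp6v0d1, the form of the same subunit found in most cells, measured 62.7 to 68.5 CPM (median 65.7) in DN:WT and 54.1 to 63.5 CPM (median 58.1) in DN:HOM livers, and its log2 fold change was -0.15 ± 0.06 (adjusted p = 0.029), which was lost with all 48 livers (-0.11, adjusted p = 0.11) and turned with library size alone (0.28, adjusted p = 4.9e-05). Per kilobase of exon, Atp6v0d1 stood at a median of 14.4 and Atp6v0d2 at 0.484 CPM in DN:WT livers, and at 12.8 and 7.32 CPM in DN:HOM livers. These values were 14.7 and 2.27 CPM in KO:HOM livers. Tcirg1, the subunit a3 of osteoclasts and other acid-secreting cells, rose by 1.39 ± 0.20 in the knock-in (adjusted p = 7.1e-08; 0.98 with all 48) and by 0.81 ± 0.18 in the knockout (adjusted p = 0.0011). The catalytic subunit Atp6v1a, Atp6v1b2 and the accessory subunit Atp6ap1 rose in DN:HOM livers by 0.59, 0.53 and 0.45 (0.43, 0.39 and 0.34 over all 48 livers), of which Atp6v1b2 also rose in KO:HOM livers (0.30, adjusted p = 0.0013). Atp6v1h, which couples both sectors of the pump, had -0.28 ± 0.06 in the knock-in (adjusted p = 1.3e-04; -0.20 over all 48 livers, adjusted p = 0.013), but 0.15 with library size alone (adjusted p = 0.019), again below the median of all genes.

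Of the 2 regulators, Tfe3 was higher in DN:HOM livers. It measured 24.3 to 33.5 CPM (median 28.2) in DN:WT and 29.3 to 44.8 CPM (median 36.8) in DN:HOM livers, and its log2 fold change was 0.43 ± 0.09 (adjusted p = 1.2e-04; 0.29 over all 48 livers, adjusted p = 0.015). Tfeb measured 7.56 to 11.7 CPM (median 8.99) in DN:WT and 9.75 to 12.2 CPM (median 10.03) in DN:HOM livers, and its log2 fold change of 0.24 ± 0.11 had an adjusted p of 0.061 (0.19 over all 48 livers, adjusted p = 0.16). Tfe3 had -0.04 ± 0.09 in KO:HOM livers (adjusted p = 0.83) and Tfeb 0.04 ± 0.10 (adjusted p = 0.82). The amount of RNA of these factors does not measure their activity, which is also controlled by their location in the cell.

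Promoters were searched for the element that these factors bind. Of the 39 genes, 33 have a start site in the RefSeq promoter table for GRCm38.p6, each with 250 bases before and 50 bases after the start. The core CACGTG, a palindrome and so the same on both strands, was present in 10 of the 33 (30.3%), and in 8.09% of all 27025 genes in the table. The longer TCACGTGA, a palindrome that contains the core, was present in 6 of the 33 (18.2%), against 1.12% of all genes. These 6 were Ctsa, Ctsd, Gla, Mcoln1, Atp6v0d1 and Atp6v1a. The 5 of them whose RNA passed the test in a comparison follow, printed from 250 bases before the start to the start or to the last TCACGTGA just after it, with that element in capitals. They run 5′ to 3′ on the strand of the gene and lie in GRCm38.p6 at chrX:134601006-134601255 (minus strand, Gla), chr7:142387828-142388077 (minus, Ctsd), chr2:164833523-164833784 (plus, Ctsa), chr16:44139260-44139509 (minus, Atp6v1a) and chr8:105566061-105566314 (minus, Atp6v0d1).

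Gla: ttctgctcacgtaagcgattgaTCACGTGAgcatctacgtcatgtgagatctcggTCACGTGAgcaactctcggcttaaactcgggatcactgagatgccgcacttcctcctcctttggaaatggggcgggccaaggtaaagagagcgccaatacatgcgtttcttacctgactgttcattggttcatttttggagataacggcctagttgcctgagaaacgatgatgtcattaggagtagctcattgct

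Ctsd: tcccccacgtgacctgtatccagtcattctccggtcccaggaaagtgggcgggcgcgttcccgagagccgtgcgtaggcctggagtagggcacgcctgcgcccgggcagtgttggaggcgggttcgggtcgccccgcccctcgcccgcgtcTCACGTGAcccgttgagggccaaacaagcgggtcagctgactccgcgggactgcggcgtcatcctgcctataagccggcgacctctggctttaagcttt

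Ctsa: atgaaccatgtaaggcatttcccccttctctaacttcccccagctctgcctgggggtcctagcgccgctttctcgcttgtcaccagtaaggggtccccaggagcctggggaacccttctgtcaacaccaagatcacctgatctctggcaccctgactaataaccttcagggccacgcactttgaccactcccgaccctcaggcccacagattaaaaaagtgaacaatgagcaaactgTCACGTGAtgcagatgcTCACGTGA

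Atp6v1a: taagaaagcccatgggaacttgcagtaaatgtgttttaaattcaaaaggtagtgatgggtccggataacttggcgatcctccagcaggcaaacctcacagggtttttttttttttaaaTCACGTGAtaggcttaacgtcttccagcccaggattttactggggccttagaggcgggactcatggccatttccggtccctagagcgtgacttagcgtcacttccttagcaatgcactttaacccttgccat

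Atp6v0d1: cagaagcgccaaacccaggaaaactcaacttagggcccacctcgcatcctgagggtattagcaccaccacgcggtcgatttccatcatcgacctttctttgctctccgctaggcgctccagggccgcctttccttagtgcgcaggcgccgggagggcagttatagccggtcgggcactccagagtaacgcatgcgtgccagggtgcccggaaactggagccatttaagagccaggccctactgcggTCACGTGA

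The element in Gla occurs 2 times, starting 228 and 195 bases before the start site, and in Ctsa 2 times, on either side of it. The genes shown include a rise of 1.38 (Gla), rises of 0.93, 0.60 and 0.59 (Ctsd, Ctsa, Atp6v1a) and the lower value of Atp6v0d1 (-0.15, turned by library size alone), all on the log2 scale in DN:HOM livers. Of the 10 genes with CACGTG, 8 were higher in DN:HOM livers with a median log2 fold change of 0.39, and of the 23 genes without it in this window, 17 were higher with a median of 0.47. The 5 largest rises in DN:HOM livers, Cd63, Atp6v0d2, Ctsk, Ctss and Cd68, were not among the genes with a match. No more follows from this than that the letters were not found in the windows read. This split by motif was chosen after the data were seen.

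The difference between the studies was tested as the knock-in effect minus the knockout effect, each against its own wild-type livers. Site, line and allele differ together between the studies and cannot be told apart in it. It passed for 19 lysosomal genes with a larger value in the knock-in and for 1 with a smaller value, against 16.5% and 18.3% of all genes. The largest were Cd63 (3.07 ± 0.45, adjusted p = 8.2e-07), Ctsk (2.81 ± 0.39, adjusted p = 2.6e-07), Atp6v0d2 (2.70 ± 0.40, adjusted p = 1.0e-06), Asah1 (0.86 ± 0.18, adjusted p = 1.9e-04) and Gla (0.78 ± 0.24, adjusted p = 0.0093). Over all 48 livers these differences were 0.60, 1.39, 0.72, 0.50 and 0.39, none of which passed (adjusted p of 0.69, 0.13, 0.53, 0.17 and 0.40), and a single lysosomal gene, Atp6ap1, still passed with 0.28 (adjusted p = 0.036), while 0 were smaller, against 4.05% and 6.42% of all genes. The difference between the studies thus depended on leaving out the 2 livers that went against their labels. Grn and Tfe3 were also in the 19 (0.78 and 0.46, but 0.515 and 0.316 over all 48 livers). The ranges of Grn in KO:WT and DN:WT livers, given above, overlapped, and these 2 groups of different sites were not tested against each other. The 1 smaller value, of Atp6v1h (-0.24 ± 0.08, adjusted p = 0.026), turned to 0.07 with library size alone.

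Ctss and Cd68 were not in the 19. Their differences were 0.62 and 0.59, with the 95% interval reaching from -0.41 to 1.64 and from -0.41 to 1.59 (adjusted p of 0.38 and 0.39). Psap had 0.23 (-0.09 to 0.56, adjusted p = 0.28). Over all 48 livers the differences of Ctss, Cd68 and Psap turned to -0.66, -0.33 and -0.02 (adjusted p of 0.57, 0.78 and 0.96). Ppt1 had -0.26 (-0.58 to 0.06, adjusted p = 0.23), and -0.39 over all 48 livers. Ctsc had -0.32 (-0.94 to 0.31, adjusted p = 0.48), and -0.48 over all 48 livers. These intervals leave room for differences in either direction.

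**Figure D3:**
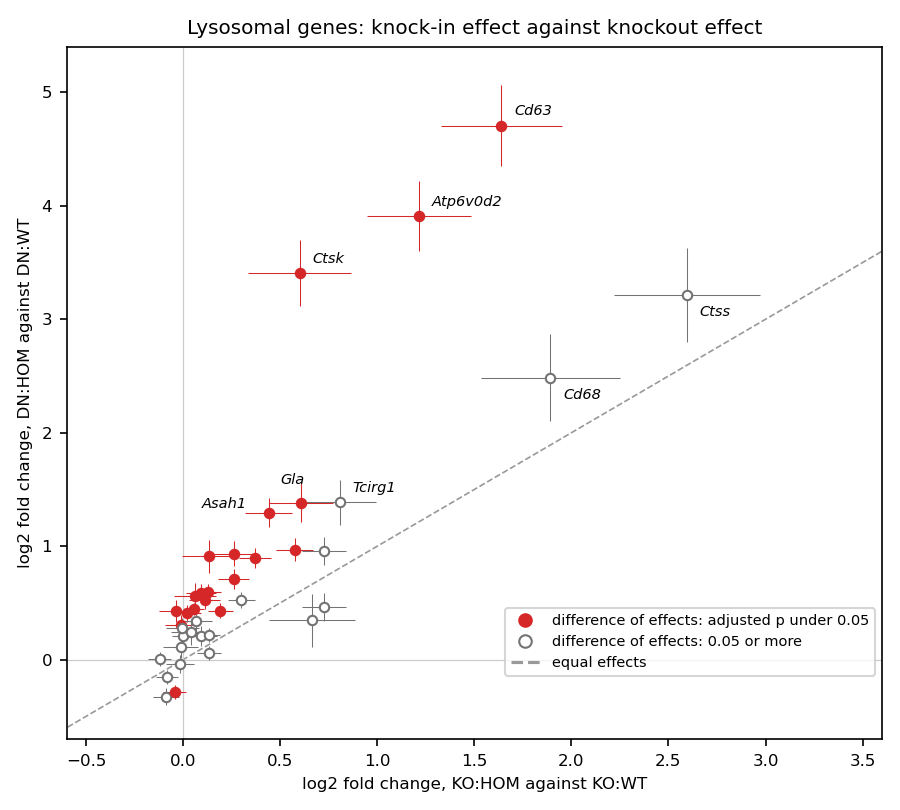
Log2 fold change of the 39 lysosomal genes in DN:HOM against DN:WT livers (vertical axis, 46 livers) over that in KO:HOM against KO:WT livers (horizontal axis), with standard errors. Red genes passed the test of the difference of effects, and the dashed line marks equal effects. Cd63, Atp6v0d2 and Ctsk lie furthest above the line, with differences of 3.07, 2.70 and 2.81.

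In DN:HET against DN:WT livers, 2 of the 39 genes were higher and 0 lower (0 lower by DESeq2 and at an unadjusted p under 0.05), against 2.23% and 0.0700% of all genes. By DESeq2, 6 of the 39 were higher, against 3.79% of all genes. The 2 genes higher by edgeR were Ctss (log2 1.57 ± 0.38, adjusted p = 0.019) and Tcirg1 (0.69 ± 0.19, adjusted p = 0.040). At an unadjusted p under 0.05, 12 of the 39 (9.46% of all genes) were higher. Markers of other cells moved with these calls, as 4 of 9 macrophage, 3 of 8 lipid-associated macrophage, 3 of 5 T cell, 1 of 5 Kupffer cell and 1 of 4 neutrophil markers were higher in DN:HET livers, of which 2 T cell markers passed over all 48 livers. Their part in it was not tested. DN:HET livers measured 32.2 to 255 CPM (median 60.6) of Ctss. The highest were animals 4 and 22, with 255 and 248 CPM, which lay in the range of DN:HOM livers, and the next had 108 CPM. Without these 2 livers, 0 of the 39 genes passed (Ctss 0.69, adjusted p = 1.0; Tcirg1 0.26, adjusted p = 1.0), and of all 15849 genes tested 2 were higher (0.0126%) in place of 350, so that the 0 is not a result about the lysosomal genes. Over all 48 livers 0 passed as well (Ctss 0.48, adjusted p = 1.0, and Tcirg1 0.43, adjusted p = 0.82), against 0.250% of all genes. Cd63 in DN:HET livers (5.03 to 17.8 CPM, median 7.37) overlapped DN:WT livers and lay far below DN:HOM livers, also in animals 4 and 22 (17.8 and 16.1 CPM). In KO:HET against KO:WT livers 0 genes passed in either direction by edgeR or DESeq2, with 2 higher and 1 lower at an unadjusted p under 0.05 (2.9% and 3.35% of all genes). Of all genes, 0.0127% were higher and 0.00636% lower there. The medians of the 3 genotypes rose in the order WT, HET, HOM for 30 of the 39 genes in the knock-in study (28.2% of all genes; 28 and 24.6% over all 48 livers) and for 14 of the 39 in the knockout study (23.5% of all genes).

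Macrophage markers moved with several of these genes. The summed level of 9 markers that are not lysosomal genes (Csf1r, Adgre1, Lyz2 and others) was 183 to 341 CPM in DN:WT, 1006 to 1556 CPM in DN:HOM, 125.5 to 294 CPM in KO:WT and 314 to 1281 CPM in KO:HOM livers, and all 9 and 8 of the 9 were higher in the homozygous comparisons (7 and 7 over all 48 livers). Lipid-associated macrophage markers (8 genes, with Gpnmb and Trem2) summed to 57.7 to 132 CPM in DN:WT, 1048 to 1661 CPM in DN:HOM, 40.3 to 148 CPM in KO:WT and 106.5 to 368 CPM in KO:HOM livers. Of these 8 genes, 8 and 6 were higher (8 and 3 over all 48 livers), and the sums of the knockout groups overlapped. The 5 markers of resident Kupffer cells summed to 131 to 256 CPM in DN:WT livers and only 1.56 to 3.50 CPM in DN:HOM livers, with 21.7 to 66.1 CPM in KO:HOM against 74.0 to 299 CPM in KO:WT livers, and 5 and 3 of the 5 were lower (5 and 2 over all 48 livers). Of the 4 neutrophil markers tested, 4 were higher in DN:HOM and 3 in KO:HOM livers (2 and 1 over all 48 livers). Of 5 T cell markers, 3 and 5 were higher (1 and 5 over all 48 livers), and of 5 stellate cell markers 4 and 3 (4 and 1). All 4 cholangiocyte markers were higher in DN:HOM livers, also over all 48 livers. Of 5 endothelial markers, 3 were lower and 1 was higher in DN:HOM livers (3 and 0 over all 48 livers, 1 and 1 with library size alone). Of 4 B cell markers, 1 was lower there, a call lost over all 48 livers and with library size alone. The summed level of 7 hepatocyte markers lay at 29930 to 41160 CPM in DN:HOM livers, against 62930 to 79040 CPM in DN:WT livers, and 6 of the 7 were lower (6 over all 48 livers; 5 lower and 1 higher with library size alone). In KO:HOM livers it lay at 54550 to 77580 CPM, against 74120 to 99310 CPM in KO:WT livers, and 5 of the 7 were lower (2 over all 48 livers and 2 with library size alone). No macrophage, Kupffer cell or hepatocyte marker was at 0 in all livers of a group. The part of these cell types in the changes of the lysosomal genes was not tested.

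Of 4 livers with a like macrophage sum, chosen after their values were seen, DN:HET animals 4 and 22 had sums of 1275 and 1309 CPM, KO:HOM animal 8 had 1281 CPM and DN:HOM animal 19 had 1221 CPM. Ctss in these 4 livers was 255, 248, 309 and 325 CPM. Cd63 was 17.8, 16.1, 29.7 and 145 CPM, and Atp6v0d2 2.44, 2.11, 8.07 and 18.7 CPM. Their lipid-associated macrophage sums were 281, 347, 368 and 1418 CPM and their Kupffer cell sums 552, 598, 66.1 and 1.82 CPM, so that these 2 sums were not alike. Markers of further cell types were not compared in these 4 livers. What sets Cd63 apart in the DN:HOM liver was not tested.

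**Figure D4:**
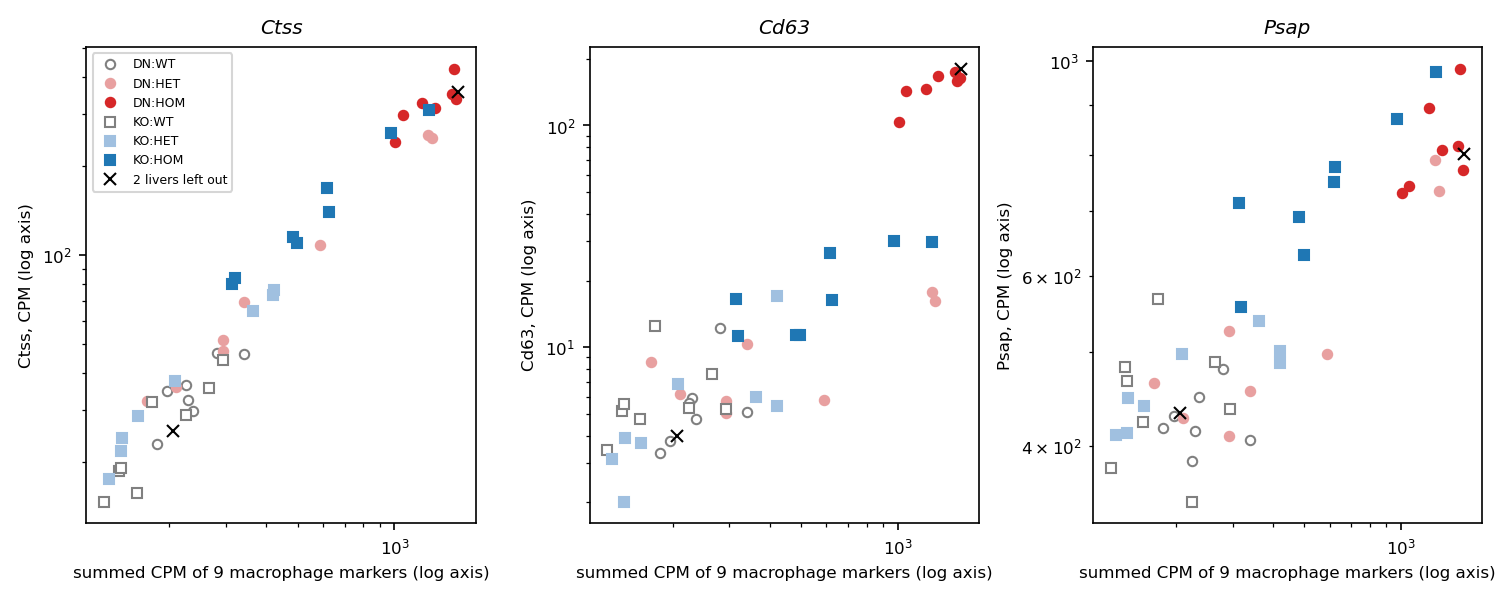
CPM of Ctss, Cd63 and Psap in each of the 48 livers (vertical log axes) over the summed CPM of 9 macrophage markers (horizontal log axis). Circles are the knock-in study, squares the knockout study and crosses the 2 livers left out. Cd63 of DN:HOM livers (103 to 175 CPM) lies above that of DN:HET and KO:HOM livers with a similar sum.

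Levels of different genes were compared per kilobase of exon. In DN:WT livers the most abundant were Lamp1 (median 132 CPM per kilobase), Psap (131) and Ctsb (70.6), and the least abundant Cd63 (1.07), Atp6v0d2 (0.484) and Ctsk (0.185). Lamp1 and Psap could not be ordered, with ranges of 116 to 142 and 121 to 150. In DN:HOM livers Psap led with 253 CPM per kilobase, Ctss moved from position 20 of the 39 to 7 (6.54 to 61.3) and Cd63 from 37 to 12 (1.07 to 33.03). Among KO:HOM livers Ctss, Cd63, Cd68 and Atp6v0d2 had coefficients of variation of 53.0%, 43.5%, 43.2% and 41.5%. Among KO:WT livers these were 40.9%, 44.7%, 59.7% and 30.7%.

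A wider set held 73 other lysosomal genes. In DN:HOM livers 36 were higher and 14 lower (32 and 12 over all 48 livers, 59 and 1 with library size alone), against 29.1% and 30% of all genes, with a median log2 fold change of 0.19 (0.62 with library size alone). In KO:HOM livers 17 were higher and 5 lower, against 11.5% and 7.87% of all genes, with a median of 0.04. Over all 48 livers 11 were higher and 2 lower there, against 8.79% and 4.12% of all genes. With library size alone these were 27 and 1, against 16.7% and 2.78% of all genes. The largest rise of the knock-in was Rragd, which encodes a Rag GTPase that links lysosomal amino acids to mTORC1. It measured 0.927 to 2.13 CPM (median 1.41) in DN:WT and 29.01 to 52.7 CPM (median 46.1) in DN:HOM livers (log2 4.91 ± 0.25, adjusted p = 2.9e-19; 2.71 over all 48 livers, adjusted p = 1.1e-04), and 1.33 to 4.19 CPM (median 2.76) in KO:HOM livers (log2 0.76 ± 0.23, adjusted p = 0.016). Laptm5, a lysosomal membrane protein of blood cells, rose by 2.21 in the knock-in and 1.61 in the knockout, and the sulfatase Galns by 1.95 in the knock-in (1.44 and 1.37 for these genes in the knock-in over all 48 livers). Naaa, an amidase of lipid amides, rose by 1.36 in the knockout. The largest falls of the knock-in were Rptor, a subunit of mTORC1 (-0.75 ± 0.08, adjusted p = 2.5e-11; -0.56 over all 48 livers), Abcb9 (-0.72; -0.61) and Tpcn1 (-0.65; -0.49), which with library size alone were -0.32, -0.29 and -0.22, the latter 2 no longer past the threshold (adjusted p of 0.14 and 0.080). Those of the knockout were the pump subunit Atp6v1g1 (-0.51 ± 0.08, adjusted p = 3.1e-05), Mfsd8 (-0.24) and Slc17a5 (-0.23). The latter 2 were lost with library size alone (-0.12 each, adjusted p of 0.30 and 0.28), and Mfsd8 also over all 48 livers (adjusted p = 0.096). Of 11 further pump subunits, 7 were higher and 1 was lower in DN:HOM livers, and Atp6v1g1 alone passed in KO:HOM livers. The core CACGTG was present in 30.9% and TCACGTGA in 12.7% of the 55 of these genes with a promoter in the table.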

How the data were processed

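Stranded poly(A) libraries of 48 mouse livers were sequenced. The authors aligned the reads with STAR 2.5.0a to GRCm39 (Ensembl annotation) and deposited raw read counts per gene, unstranded and by strand; those of the gene strand were used. A median of 26.55% of reads named no gene and stayed out of library sizes and tests. Symbols, positions and exon lengths came from GENCODE vM39, later than the release used for alignment. Genes passing filterByExpr were scaled by TMM and tested with edgeR 4.0.16 (quasi-likelihood, 6 group means, R 4.3.3), with Benjamini-Hochberg adjustment over all genes and a threshold of 0.05. CPM are counts per 1000000 reads of the TMM-scaled library, and 95% intervals come from the standard errors of the fit. Promoters came from the RefSeq table for GRCm38.p6. Tables were made in Python 3.11.15 (pandas 2.3.3, numpy 2.4.6) and figures in matplotlib 3.10.9.

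Genotypes came from the labels, which name separate mice. DN:WT animal 10 and DN:HOM animal 12 were left out, and all 48 livers formed an alternative, beside a fit with DESeq2 1.42.0, scaling by the upper quartile, testing without the low-count filter or with a mean CPM of 1 or more, counts without strand, fits of each study by itself, leaving out the 2 livers under 10000000 reads, and a window of the 250 bases before the start. Library size alone, and leaving out DN:HET animals 4 and 22, were added after seeing the data. The members and lists were chosen with earlier results of these data known. Named were 15 listed genes, the 8 largest rises and 5 largest falls past the threshold of each homozygous comparison, every member past it in heterozygous livers, the 5 largest differences of effects in each direction, and of the other lysosomal genes the 3 largest rises and falls, of which 1 is not reported here; the remaining members are given in groups. On simulated data for DN:HOM against DN:WT with 15711 genes, the fit called 75% of those set to a log2 fold change of 1, 98% at 2, and 10 of 15511 left unchanged. Few genes were changed there, with rises and falls in equal number, whereas 9292 genes were called in the data. The simulation therefore did not test the scaling between libraries.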

Additional observations from a re-analysis of the deposited data

Results flagged for a closer look

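In 17 of 234 checks of a lysosomal gene within a group, the highest or lowest liver stood apart from the rest by more than Dixon's criterion allows, where chance gives about 1 in 20. KO:HET animal 9 was highest for 4 genes, with 17.1 CPM of Cd63 (others at most 6.83), 2.60 CPM of Ctsk (at most 1.38), 125 CPM of Gm2a (at most 96.1) and 31.6 CPM of Naglu (at most 27.9). KO:WT animal 23 was highest for 4 genes, with 12.4 CPM of Cd63 (others at most 7.58), 77.1 CPM of Hexa (at most 58.1), 47.6 CPM of Gusb (at most 33.6) and 37.3 CPM of Ppt1 (at most 28.1). DN:WT animal 5 had the highest Idua (15.4 CPM) and Mcoln1 (50.7 CPM) and the lowest Gm2a (64.2 CPM) and Asah1 (21.2 CPM) of its group. DN:WT animal 17 had the highest Cd63 (12.3 CPM, others at most 5.92) and Grn (144 CPM, others at most 106). KO:WT animal 31 had the highest Ctsz (271 CPM, others at most 210), DN:HOM animal 33 the lowest Ctsz (284 CPM, others at least 304) and DN:HET animal 20 the lowest Ctsh (170 CPM, others at least 190).

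The effect of the homozygous genotype differed between the knock-in and the knockout study by the test of the difference for 20 lysosomal genes over 46 livers. On the log2 scale the knock-in effect was larger by 3.07 for Cd63, 2.81 for Ctsk, 2.70 for Atp6v0d2, 0.86 for Asah1, 0.78 for Gla, 0.78 for Grn and 0.67 for Ctsd. It was larger by 0.52 for Ctsz, 0.50 for Atp6v1a, 0.50 for Gusb, 0.47 for Ctsa, 0.46 for Tfe3, 0.45 for Ctsb and 0.42 for Neu1. It was larger by 0.40 for Hexa, 0.39 for Tpp1, 0.39 for Atp6ap1, 0.32 for Ctsl and 0.24 for Naglu, and the difference was -0.24 for Atp6v1h. Over all 48 livers 1 of these 20, Atp6ap1, passed.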

How the results depend on the processing

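The numbers of lysosomal genes called in DN:HOM livers stayed within 29 to 38 higher and 0 to 3 lower over all alternatives, with 0 lower under library size alone, where Lamp2 turned to 0.10, Atp6v0d1 to 0.28 and Atp6v1h to 0.15, and the difference between the studies of Atp6v1h to 0.074. Of all genes, 16.6% to 59.1% were higher and 11.1% to 31.9% lower in DN:HOM livers over these alternatives. In KO:HOM livers 9 genes were higher over all 48 livers in place of 15 (8.79% of all genes in place of 11.5%). In DN:HET livers 0 were higher over all 48 livers, 6 with DESeq2, 4 with library size alone, 1 with each study alone and 0 without DN:HET animals 4 and 22, in place of 2. The shares of all genes were 0.250%, 3.79%, 2.90%, 1.52% and 0.0126%, in place of 2.23%. The difference between the studies was larger in the knock-in for 1 gene over all 48 livers and for 32 with library size alone, in place of 19, and for 4.05% and 37.7% of all genes, in place of 16.5%. It was smaller for 0 genes over all 48 livers, with upper-quartile scaling, with library size alone and without the low-count filter, and for 2 with a mean CPM of at least 1, with unstranded counts and without DN:HET animals 4 and 22, in place of 1 (6.42% to 20.8% of all genes). Of the 70 called values of single genes, 41 passed in the same direction over all 48 livers and 29 kept their direction without passing; the cause of the other changes was not tested. TCACGTGA was present in 5 and CACGTG in 9 of the 33 promoters in the 250 bases before the start alone. No paired analysis was possible because the animal numbers of the labels name different mice in each group. Genes near 0.5 CPM, such as Ctsk in DN:WT livers, rest on few reads.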
